A study of Mus musculus with 13 samples.

Results

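Expression of 6 GABA-A receptor subunits (*Gabra2*, *Gabra3*, *Gabra5*, *Gabrb1*, *Gabrb2* and *Gabrg1*) and of the chloride importer *Slc12a2* was measured in single neurons of the mouse dorsal root ganglion (DRG), sorted to enrich for proprioceptive sensory neurons. They were chosen by name, as genes that serve presynaptic inhibition of afferents, and are 7 of the 50508 genes listed in the count tables, of which 27777 had at least 1 unique molecular identifier (UMI) in a neuron that the study kept. Neurons that carried the red reporter tdTomato were sorted singly into the wells of 13 plates (96 wells each) and sequenced by Plate-seq, a method that tags each well with a barcode and each captured RNA with a UMI. The plates hold neurons of 4 stages, 5 plates from adults (over postnatal day 56), 4 from postnatal day 12 (p12), 2 from birth (p0) and 2 from e14.5 embryos. Adult, p12 and p0 mice carried *PV:Cre*+/-, *Rx3:Flp*+/- and the double-stop reporter *Ai65*+/-, so that tdTomato marks cells with a history of both parvalbumin and *Runx3* expression. At e14.5 the neurons came from *TrkC:tdTomato* embryos, and the mouse line and the stage cannot be told apart there. The study states that at this stage the line marks every neuron with *Runx3*, Merkel cell afferents among them. Animals of either sex were used (6 adults, 4 p12, 6 p0 and 2 e14.5 mice), the ganglia spent longer in enzymes at later stages (10 min per step at e14.5 and p0, 12 at p12, 16 in the adult), and the labels do not tie animals to plates, so plates may share animals and the p-values measure only the spread between plates.

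Proprioceptors supply muscle spindles and Golgi tendon organs and carry the state of the muscle to the spinal cord. GABA-A receptors are pentameric chloride channels, most often a pair of alphas, a pair of betas and a gamma, and the alpha subunit sets much of the receptor's affinity for GABA, its kinetics and its place in the membrane. Sensory neurons keep a high internal chloride concentration through the sodium-potassium-chloride cotransporter NKCC1, the product of *Slc12a2*, so that GABA depolarizes their axons in place of hyperpolarizing them. This primary afferent depolarization, driven by GABAergic interneurons of the spinal cord, is known for gating transmitter release from proprioceptor terminals and for keeping action potentials from failing at axon branch points. The alpha 5 subunit is known for receptors that respond to low GABA outside the synapse.

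*Gabrg1* (chromosome 5, 70751047 to 70842617, GRCm38), *Gabra2* (chromosome 5, 70958392 to 71095849) and *Gabrb1* (chromosome 5, 71657921 to 72149572) lie in 1 cluster of receptor genes, with 115774 bases between *Gabrg1* and *Gabra2* and 562071 between *Gabra2* and *Gabrb1*. *Gabra5* lies on chromosome 7 (57407669 to 57591016), *Gabrb2* on chromosome 11 (42419515 to 42632591) and *Gabra3* on the X chromosome (72432676 to 72656919). The 250 bases before the RefSeq start of *Gabrg1*, *Gabra2* and *Gabra5* are shown because most of the receptor results concern these 3 genes. All 3 windows are on the minus strand of GRCm38 and read 5′ to 3′, and capitals mark the letters CCAAT or ATTGG (1 in each window, found in 33.8% of the 32851 RefSeq promoters of this length) and GGGCGG (in *Gabra2* only, found in 32.7% with its reverse CCGCCC).

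Gabrg1, chr5:70842618-70842867: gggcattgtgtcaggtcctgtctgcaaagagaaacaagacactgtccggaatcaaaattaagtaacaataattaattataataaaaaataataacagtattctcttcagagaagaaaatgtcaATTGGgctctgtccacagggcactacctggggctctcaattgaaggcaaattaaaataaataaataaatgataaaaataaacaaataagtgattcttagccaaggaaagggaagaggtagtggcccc
Gabra2, chr5:71095850-71096099: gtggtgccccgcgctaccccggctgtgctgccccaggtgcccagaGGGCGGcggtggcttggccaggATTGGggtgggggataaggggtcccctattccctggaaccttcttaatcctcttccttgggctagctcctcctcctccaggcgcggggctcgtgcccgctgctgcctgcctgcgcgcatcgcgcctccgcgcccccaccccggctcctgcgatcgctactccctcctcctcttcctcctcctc
Gabra5, chr7:57510060-57510309: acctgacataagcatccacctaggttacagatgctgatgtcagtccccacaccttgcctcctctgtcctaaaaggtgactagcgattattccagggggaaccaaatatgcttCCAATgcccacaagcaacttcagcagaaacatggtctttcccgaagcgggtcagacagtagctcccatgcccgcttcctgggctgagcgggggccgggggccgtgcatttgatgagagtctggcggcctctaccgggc

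The window of *Gabra5* starts from a RefSeq transcript whose start lies inside the gene's listed span. The neighbours *Gabrg1* and *Gabra2* differ in base composition, with 35.6% G and C and 1 CG pair before *Gabrg1* against 70% and 18 CG pairs before *Gabra2*, and *Gabra5* has 56.4% and 9. Over all these promoters the median is 52.4% G and C and 6 CG pairs, with 5th to 95th percentiles of 34.8% to 73.6% and 0 to 31. None of the 3 windows holds TGTGGT, the core letters bound by RUNX factors, or TATAAA on either strand (14% and 12.4% of promoters hold them). Letters alone show neither a binding site nor its use.

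Expression is given as CPM, a gene's UMIs divided by all UMIs of its neuron and scaled to 1000000. Neurons were averaged within a plate, and plates within a stage (mean ± SD over plates). The study kept 586 neurons of 1137 wells with at least 2000 genes, 208 in the adult (20 to 53 per plate), 154 at p12 (12 to 67), 55 at p0 (31 and 24) and 169 at e14.5 (75 and 94). Mean depth per neuron lay between 33828 and 59682 UMIs on the adult plates, 21753 and 65165 at p12, 38306 and 44139 at p0 and 9669 and 13061 at e14.5. All 5 proprioceptor markers (*Pvalb*, *Runx3*, *Ntrk3*, *Etv1* and *Whrn*) were present at every stage, with a summed level of 2761 to 3315 CPM on adult plates, 4076 to 4371 CPM at p12, 4986 to 5060 CPM at p0 and 1668 to 1708 CPM at e14.5, where *Whrn* had a UMI in 1.18% of neurons and clusters 1, 3 and 4 each had 4 of the 5 markers. All plates used the same 96 well barcodes.

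In kept adult neurons *Gabra2* and *Gabrg1* led the 6 receptor genes measured here and the other members were sparse. *Gabra2*, the alpha 2 subunit, stood at 55.7, 48.6, 27.5, 28.6 and 35.5 CPM on the 5 adult plates (39.2 ± 12.5, n = 5), with at least 1 UMI in 140 of 208 neurons. *Gabrg1*, the gamma 1 subunit, stood at 40.0, 25.6, 14, 24.4 and 17.6 CPM (24.3 ± 10.0, n = 5), with a UMI in 104 neurons. Its range overlapped that of *Gabra2*, although on each plate *Gabra2* was the higher of the pair. With neurons thinned to 7000 UMIs that order turned on replicates 4 (21.4 CPM of *Gabra2* against 46.4 CPM of *Gabrg1*) and 5 (21.4 against 35.7 CPM). *Gabra3* (6.29 ± 2.51 CPM), *Gabra5* (5.65 ± 2.33 CPM) and *Slc12a2* (6.34 ± 4.30 CPM) had overlapping plate values and could not be ranked against each other. The beta subunits *Gabrb1* (0.707 ± 0.662 CPM, 8 UMIs in all) and *Gabrb2* (0.436 ± 0.513 CPM, 5 UMIs) were close to the limit of detection, and 1 or more adult plates were at 0 for each. CPM here is not scaled by gene length, so an order between genes is an order of UMI shares only.

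Across stages the 7 genes had different orders of level. *Gabra5* was high at p0 and low from p12 on. *Slc12a2* was at its highest level of the 4 stages at e14.5, while *Gabra2* and *Gabrg1* had higher means at p12 and in the adult than at p0. For *Gabrg1* at p12 this leaned on replicate 1 (41.1 CPM, against 5.51 to 15.9 CPM on the others). With thinned neurons *Gabrg1* stood at 9.89 CPM at p0, 7.98 CPM at p12 and 29.6 CPM in the adult. *Gabra2* then stood at 32.0, 32.8 and 32.8 CPM.

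**Figure D1:**
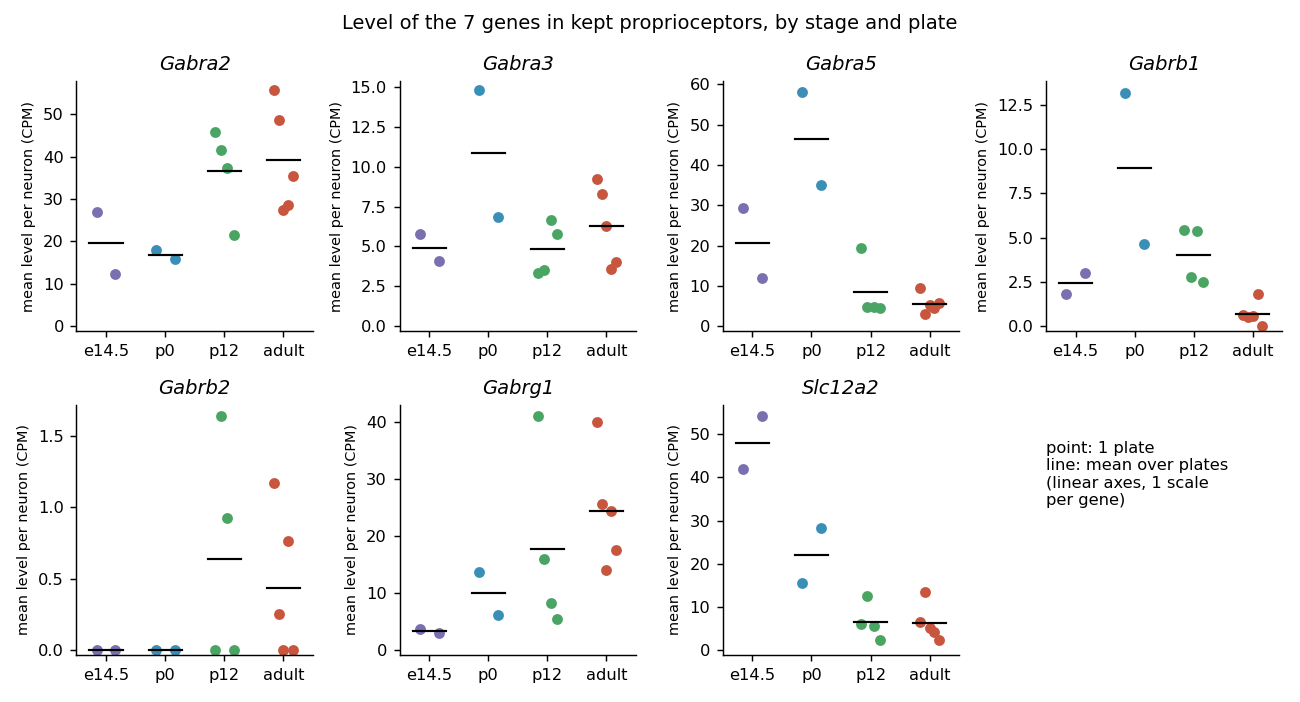
Mean level per kept neuron in CPM (linear axes with a scale of their own for each gene) by stage, each point 1 plate and each line the mean over plates. *Gabra5* lies at 35.0 and 58.1 CPM on the p0 plates and at or below 19.5 CPM on every p12 and adult plate, and *Slc12a2* lies at 41.9 and 54.3 CPM at e14.5 and at or below 13.5 CPM from p12 on.

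*Gabra5* stood at 58.1 and 35.0 CPM on the p0 plates, against 19.5, 4.82, 4.80 and 4.59 CPM at p12. The ranges did not overlap, and p12 replicate 1 lay apart from the other p12 plates. At e14.5 it stood at 29.3 and 12.0 CPM, and in the adult between 3.15 and 9.39 CPM. From p0 to p12 the level fell by 2.41 on the log2 scale (SE 0.49, edgeR quasi-likelihood F-test on UMIs summed per plate, adjusted p = 0.0033). A UMI of *Gabra5* was found in 71.1% ± 18.1 of neurons at p0 (n = 2) and 25.5% ± 27.5 at p12 (n = 4), and with every neuron thinned to 7000 UMIs the shares were 27.5% ± 2.38 and 5.20% ± 3.33. The difference was called in 20 of 21 alternative settings, with a log2 difference between -3.23 and -1.71. It was lost without p0 replicate 1 (-2.05, adjusted p = 0.0677) and grew without p12 replicate 1 (-3.10, adjusted p = 0.000281). The p12 neurons of replicates 3 and 4 were shallower (28433 and 21753 UMIs on average) than those of replicates 1 and 2 (65165 and 52324), and against either pair of p12 plates *Gabra5* was called (-3.23 and -1.71, adjusted p = 0.000421 and 0.031).

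Wells that the study left out also had more *Gabra5* at p0 than at p12. They did not enter this test but lie on the same plates, so they share any difference between plates. Left-out wells stood at 51.3 and 35.3 CPM on the p0 plates, and at 5.82, 5.63, 3.63 and 3.49 CPM on the p12 plates. Between p0 and e14.5 the difference in kept neurons (1.13, SE 0.54) did not pass the test (adjusted p = 0.135). It was 1.90 without e14.5 replicate 1, 0.68 without e14.5 replicate 2 and 0.49 with thinned neurons, and of 20 alternatives 1 called it, that without a filter (1.22, adjusted p = 0.032). Between p12 and the adult the difference was -0.46 (SE 0.47, adjusted p = 0.548).

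*Slc12a2* (chromosome 18, 57878512 to 57946821) stood at 41.9 and 54.3 CPM on the e14.5 plates and at 15.5 and 28.4 CPM at p0. It stood at 5.97, 12.4, 5.60 and 2.39 CPM at p12, and at 6.54, 13.5, 5.16, 4.17 and 2.32 CPM in the adult. The e14.5 plates lay above the p0 plates, and these above every later plate. From p0 to p12 the level fell by 1.46 on the log2 scale (SE 0.48, edgeR adjusted p = 0.0448), a call that held in 7 of 21 alternatives. The call was lost, among others, without either p0 plate (-1.75, adjusted p = 0.0977, without replicate 1 and -1.17, adjusted p = 0.285, without replicate 2), against p12 replicates 1 and 2 alone (-0.95, adjusted p = 0.243), with neurons thinned to 7000 UMIs (-1.50, SE 0.97, adjusted p = 0.37) and with p0 clusters 1 and 2 alone (-1.23, adjusted p = 0.0945). With all wells of at least 2000 genes in place of the kept neurons the difference was 0.11 (adjusted p = 0.901). From e14.5 to p0 the difference was -1.30 (SE 0.47), which missed the threshold (adjusted p = 0.0505), and 8 of 20 alternatives called it. From p12 to the adult it was -0.20 (SE 0.43, adjusted p = 0.789).

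The p0 cluster with the highest mean of *Slc12a2* also held the most glial RNA. Cluster 3 of p0 (8 neurons) had a summed level of 10 satellite glia and Schwann cell markers of 3319 and 3378 CPM on the 2 plates, against 121 to 165 CPM in clusters 1 and 2, and had all 10 markers present. Its *Slc12a2* level was 43.1 ± 18.4 CPM, against 20.8 ± 9.22 CPM in cluster 1 and 9.90 ± 0.923 CPM in cluster 2 (n = 2 each). Without this cluster the difference between p0 and p12 was -1.23, as given above.

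*Gabra2* stood at 18.0 and 15.8 CPM at p0 and at 45.8, 41.5, 37.4 and 21.5 CPM at p12, with no overlap, and at 27.0 and 12.3 CPM at e14.5. The difference between p12 and p0 was 1.12 on the log2 scale (SE 0.40) and did not pass the test (adjusted p = 0.0645), while 5 of 21 alternatives called it. With neurons thinned to 7000 UMIs the difference was 0.13 (SE 0.58, adjusted p = 0.929), and the plates then overlapped, at 46.1 and 17.9 CPM at p0 and 35.7, 22, 47.6 and 25.8 CPM at p12. Between p12 and the adult *Gabra2* differed by 0.04 (SE 0.27, adjusted p = 0.938), and between p0 and e14.5 by -0.03 (SE 0.48, adjusted p = 0.971).

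*Gabrg1* stood at 3.71 and 3.01 CPM at e14.5, 13.7 and 6.15 CPM at p0, and 41.1, 15.9, 8.23 and 5.51 CPM at p12. Both p0 plates lay above both e14.5 plates, and the p12 plates spanned the range of p0 and of the adult. No step passed the test, with log2 differences of 1.74 (SE 0.81, adjusted p = 0.123) from e14.5 to p0, 0.62 (SE 0.55, adjusted p = 0.473) from p0 to p12 and 0.64 (SE 0.38, adjusted p = 0.278) from p12 to the adult. Without a filter the first was called (1.82, adjusted p = 0.0217), in 1 of 20 alternatives. The second fell to 0.033 without p12 replicate 1. The last difference was called in 3 of 23 alternatives, with thinned neurons (2.17, SE 0.55, adjusted p = 0.0179), without p12 replicate 1 (1.23, adjusted p = 0.0255) and against p12 replicates 3 and 4 alone (1.47, adjusted p = 0.0123), and was -0.02 (adjusted p = 0.99) against p12 replicates 1 and 2.

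*Gabrb1*, a beta subunit, stood at 1.81 and 3.03 CPM at e14.5 (5 UMIs), 13.2 and 4.67 CPM at p0, 5.43, 2.76, 5.35 and 2.51 CPM at p12, and 0.645, 0.499, 0.593, 1.80 and 0 CPM in the adult. Every p12 plate lay above every adult plate. It had too few UMIs for the filter of the stage test (17 in 154 neurons at p12, 8 in 208 in the adult). Without a filter it was called lower in the adult (-2.01, SE 0.67, adjusted p = 0.0335, 8.87% of genes called). It passed the filter in 4 other settings, with log2 differences from p12 to the adult between -2.03 and -1.43. With all wells, 1 of the 4, it was called lower in the adult. The others left e14.5 or p0 with 1 plate, so the filter asked for only 1 plate above its cutoff. *Gabrb1* had the most UMIs on p0 replicate 1 (20), and without that plate it was not tested. These settings share the adult and p12 plates, so they are not independent of each other. The other steps were called with all wells and in none of the other 4 settings, with -1.98 (adjusted p = 0.00261) from p0 to p12 and 2.01 (adjusted p = 0.0184) from e14.5 to p0. In left-out wells, *Gabrb1* lay between 9.46 and 10.2 CPM at p0, 0 and 2.79 CPM at p12, and 0 and 2.22 CPM in the adult, so that p12 and adult overlapped there.

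*Gabra3* stood at 14.8 and 6.87 CPM at p0, between 3.31 and 6.66 CPM at p12 and between 3.6 and 9.25 CPM in the adult, and no step between stages was called in any alternative that tested it. *Gabrb2* had no UMI in 55 p0 or 169 e14.5 neurons, which allows up to 1.31 and 1.59 CPM (3 counts of all UMIs of the stage), and 3 and 5 UMIs in all at p12 and in the adult. At these depths a difference in *Gabrb2* between stages was not detectable.

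Of the 7 members, *Gabra2*, *Gabra5*, *Gabrg1* and *Slc12a2* passed the filter of the stage fit. None was called between p12 and the adult (14.1% of the 11939 genes tested were called), with 0 members at an unadjusted p under 0.05 and 0 called by DESeq2. Between p0 and p12, 2 of the 4 were called, both lower at p12 (9.01% of genes were called lower and 18.1% in either direction). Between e14.5 and p0, 0 of the 4 were called (27.8% of genes were), with 2 at an unadjusted p under 0.05 and 0 in DESeq2. Without a filter on low counts 3 members were called between p0 and p12 (8.53% of genes) and 3 between e14.5 and p0 (13.4%). The median log2 difference of the 4 members from p0 to p12 was -0.42, against 0.02 over all genes tested.

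**Figure D2:**
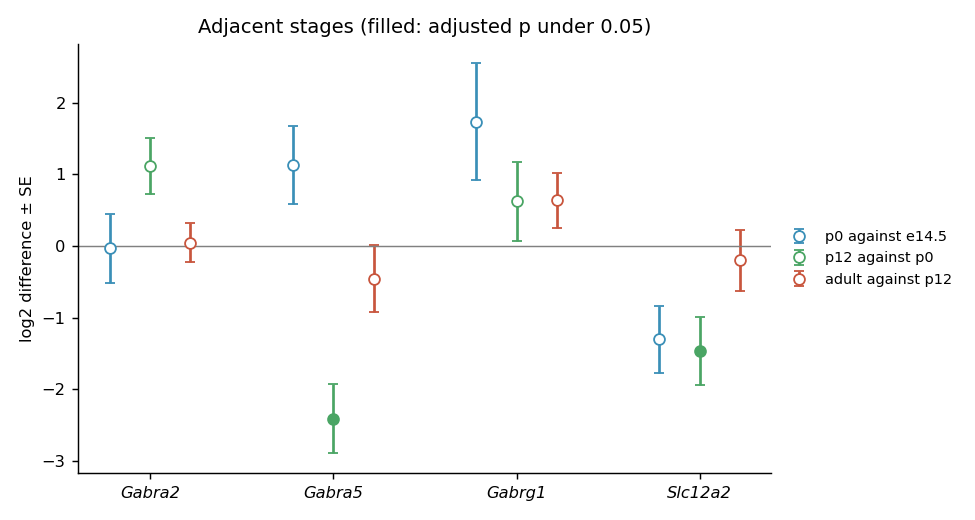
Log2 difference between adjacent stages (± SE, edgeR) for the 4 members that passed the filter on low counts, filled where the adjusted p was under 0.05. The filled points are *Gabra5* (-2.41) and *Slc12a2* (-1.46) from p0 to p12.

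The same UMIs can be read as a mix of 3 alpha subunits, pooled over the neurons of a plate, so that deep neurons weigh more than in a mean CPM. Of the 189 UMIs of *Gabra2*, *Gabra3* and *Gabra5* at p0, 63.5% were *Gabra5* and 24.3% *Gabra2*, and on the separate plates *Gabra5* made up 64.6% and 61.0%. At p12 the mix of 244 UMIs was 75.4% *Gabra2* and 15.6% *Gabra5*, with *Gabra5* between 9.38% and 28.1% on the 4 plates. In the adult (486 UMIs) it was 78.2% *Gabra2* and 12.1% *Gabra5*, with *Gabra5* between 6.14% and 17.8% on the 5 plates. At e14.5 (90 UMIs) the share of *Gabra5* was 48.4% and 46.2% on the 2 plates and that of *Gabra2* 42.2% and 42.3%. In pooled UMIs *Gabra5* took a larger share than *Gabra2* on the 4 e14.5 and p0 plates, although e14.5 replicate 2 rests on 12 UMIs against 11, and a smaller one on the 9 later plates. The order depended on the scaling on some plates. By mean CPM per neuron it turned on e14.5 replicate 2 (12.0 CPM of *Gabra5* against 12.3 CPM of *Gabra2*), and with neurons thinned to 7000 UMIs it turned on p0 replicate 1 (41.5 against 46.1 CPM) and the genes were level on p12 replicate 2 (22 CPM each). The share of *Gabra3* stayed between 4.69% and 17.8% on all 13 plates. The exact 95% binomial interval of the *Gabra5* share was 56.2% to 70.4% at p0 and 11.3% to 20.7% at p12, and covers counting error only. The shares use the same counts as the levels and were not tested on their own.

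**Figure D3:**
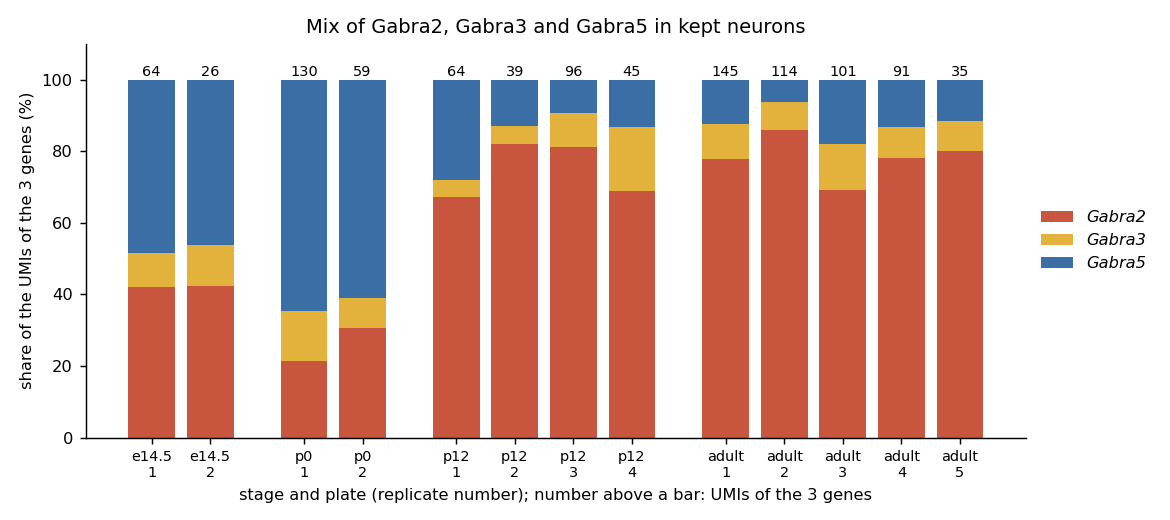
Share of *Gabra2*, *Gabra3* and *Gabra5* in their summed UMIs (percent) on each plate, with the number of UMIs above each bar. The blue part (*Gabra5*) is between 46.2% and 64.6% on the e14.5 and p0 plates and between 6.14% and 28.1% on the p12 and adult plates.

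More than 1 alpha subunit was detected in many single neurons. At p0, 40 of 55 neurons had a UMI of *Gabra5*, 25 of *Gabra2* and 20 of both, and 30 neurons had at least 2 of the 3 alpha genes. In the adult 158 of 208 neurons had a UMI of any of the 3 and 59 of at least 2, and 38 of the 45 neurons with *Gabra5* also had *Gabra2*. *Gabra2* and *Gabrg1* were detected together in 82 adult neurons, of 140 and 104 with either. These counts rise with the depth of a neuron and are given as a description.

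In the adult the study placed 51, 15, 41, 28 and 31 of the 208 neurons in its clusters 1 to 5, which are called here by number. Per the study, the other 42 fell into classes that are not proprioceptors or into small clusters, and they enter the adult stage means. Clusters 1 and 5 (51 and 31 neurons) were present on all 5 plates. Clusters 2 and 4 (15 and 28 neurons) had neurons on replicates 1 and 2 only, and cluster 3 (41 neurons) had at least 2 neurons on replicates 2 to 5. Since the authors drew the clusters from these neurons, a test between them describes how far the plates repeat a difference.

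*Gabrg1* had its lowest adult mean in cluster 3, with 0, 5.02, 14.2 and 13 CPM on replicates 2 to 5 (8.07 ± 6.76, n = 4). In cluster 1 it stood at 42.9, 21.9, 28.4, 33.8 and 49.5 CPM (35.3 ± 11.1, n = 5), and in cluster 5 at 75.4, 49.2, 14.8, 15.8 and 28.2 CPM (36.7 ± 25.7, n = 5). Every plate of clusters 1 and 5 thus lay above every plate of cluster 3. Clusters 2 (17.5 and 15.8 CPM) and 4 (27.7 and 47.4 CPM) did not overlap each other, with *Gabrg1* the higher in cluster 4. The test of any difference across the 5 clusters was not passed with the filter (adjusted p = 0.139, 9.67% of 7370 genes called) and was passed without it (adjusted p = 0.0155, 6.59% of genes called). Cluster 1 against clusters 2 to 4 gave 0.81 on the log2 scale (SE 0.38, adjusted p = 0.25) and cluster 5 against clusters 2 to 4 gave 0.80 (SE 0.40, adjusted p = 0.324). These sizes moved with the plates used. Without replicate 1 they were 0.54 and 0.21, and with replicates 1 and 2 only 2.66 and 3.13. On those 2 plates cluster 3 entered as 1 sum of 2 neurons with 0 UMIs of *Gabrg1*, so these sizes lean on a sum at 0. Neither contrast was called in any of 13 alternatives. Clusters 1 and 5 differed by 0.01 (SE 0.37, adjusted p = 1).

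*Gabra2* was present in every adult cluster, with means between 35.5 ± 23.6 CPM (cluster 3) and 60.6 ± 3.51 CPM (cluster 4). In clusters 1 and 5 its plate values fell into 2 sets. In cluster 1 it stood at 51.7 and 52.3 CPM on replicates 1 and 2 and at 25.1, 20.9 and 32.7 CPM on replicates 3 to 5, and in cluster 5 at 69.8 and 61.7 CPM and at 16.7, 23.4 and 29.4 CPM. In both clusters the first pair of plates lay above the other 3 plates. Over all kept neurons, replicates 1 and 2 exceeded replicates 3 to 5 by 0.84 (SE 0.27), which did not pass the test (adjusted p = 0.0992), and 0 of the 4 members tested were called (4.78% of genes were), with 2 at an unadjusted p under 0.05. Between clusters *Gabra2* differed by -0.28 (SE 0.36, adjusted p = 0.869) for 1 against 5, and any difference across clusters had an adjusted p of 0.433. Clusters 2 and 4 had neurons on replicates 1 and 2 alone. On these plates *Gabra2* stood at 28.1 and 46.8 CPM in cluster 2 and at 63.1 and 58.1 CPM in cluster 4, so that on both plates cluster 2 was the lowest of clusters 1, 2, 4 and 5. With replicates 1 and 2 only, any difference across clusters had an adjusted p of 0.555, and with plate as a replicate block 0.769.

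**Figure D4:**
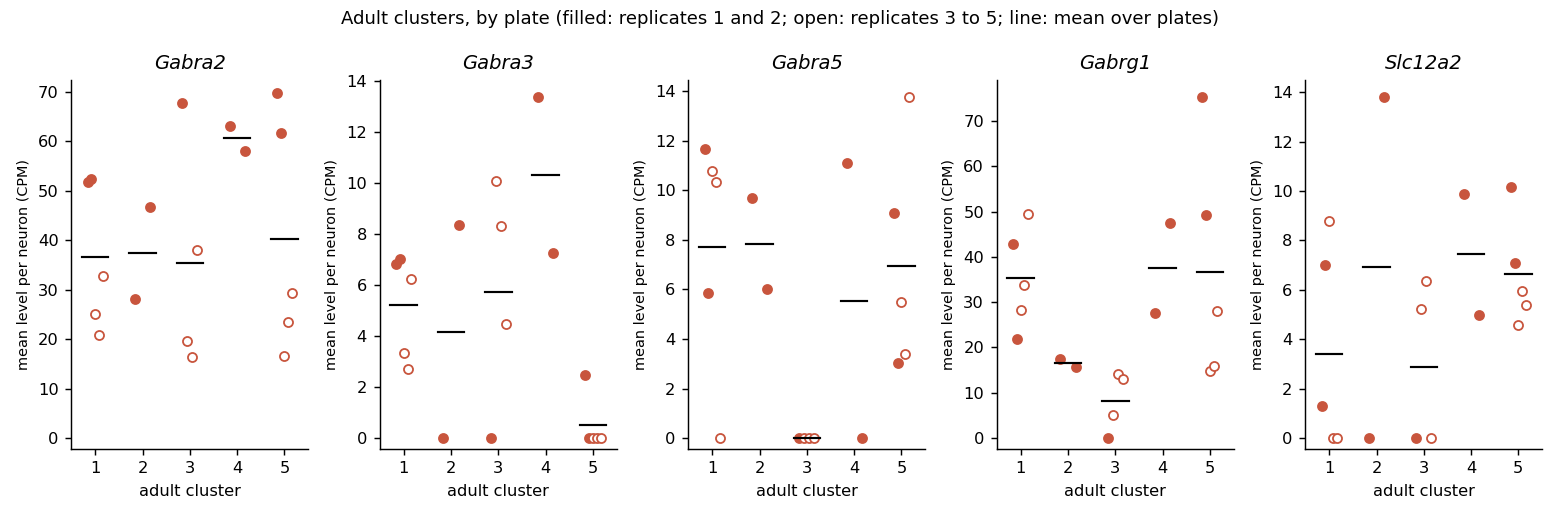
Mean level per neuron in CPM of 5 members by adult cluster, each point 1 plate with at least 2 neurons of the cluster, filled for replicates 1 and 2 and open for replicates 3 to 5. *Gabra5* is at 0 on all 4 plates of cluster 3, *Gabra3* is at 0 on 4 of the 5 plates of cluster 5, and *Gabra2* is higher in the filled points of clusters 1 and 5.

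The scarcer alpha subunits were at or near 0 in different clusters. *Gabra5* had no UMI in 41 neurons of cluster 3, which allows up to 1.85 CPM (3 counts of all UMIs of the cluster) or a UMI in up to 7.32% of neurons, against 28 UMIs in the 51 neurons of cluster 1 (11.7, 5.87, 10.8, 10.3 and 0 CPM on the 5 plates) and 11 in the 31 of cluster 5 (9.09, 3.03, 5.51, 3.40 and 13.8 CPM). *Gabra3* had 1 UMI in the 31 neurons of cluster 5 (2.48 CPM on replicate 1 and 0 on the other 4 plates), against 15 in cluster 1 (6.81, 7.03, 3.32, 2.69 and 6.25 CPM) and 12 in cluster 3 (0, 10.1, 8.31 and 4.48 CPM on replicates 2 to 5). In clusters 2 (9.68 and 6 CPM, 2 UMIs) and 4 (11.1 and 0 CPM, 4 UMIs) *Gabra5* overlapped cluster 1. *Gabra3* stood at 0 and 8.35 CPM in cluster 2 (3 UMIs) and at 13.4 and 7.25 CPM in cluster 4 (6 UMIs). Clusters 1, 2 and 4 therefore held both subunits, cluster 3 *Gabra3* without a detected *Gabra5*, and cluster 5 *Gabra5* with 1 UMI of *Gabra3*. Median depths were 59922 UMIs in cluster 1, 57694 in cluster 5 and 35599 in cluster 3.

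Neither gene passed the filter of the cluster test, which took only *Gabra2* and *Gabrg1* of the 7 members and called neither in any of the adult comparisons. In edgeR 1 of these 2 had an unadjusted p under 0.05 for cluster 1 against clusters 2 to 4 and for any difference, 0 did in the other contrasts, and DESeq2 called 0. In these comparisons, 4.76% of genes were called between clusters 1 and 5, 5.86% between cluster 1 and clusters 2 to 4, and 3.99% between cluster 5 and clusters 2 to 4. Without the filter *Gabra5* was called for any difference across clusters (adjusted p = 0.0374) and *Gabra3* was not (adjusted p = 0.199). The contrasts of single clusters missed the threshold there, with *Gabra5* at 2.15 for cluster 1 against the average of clusters 2 to 4, cluster 3 at 0 among them (SE 0.69, adjusted p = 0.0609), and *Gabra3* at -3.19 for cluster 5 against clusters 2 to 4 (SE 0.99, adjusted p = 0.0556). In cluster 1, 13 of 51 neurons had *Gabra3*, 20 had *Gabra5* and 6 had both.

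*Slc12a2* was sparse in all adult clusters. It stood at 10.2, 7.09, 4.58, 5.95 and 5.39 CPM in cluster 5 and at 1.3, 6.99, 8.79, 0 and 0 CPM in cluster 1, with overlapping ranges (no filter, cluster 1 against 5, -1.13, SE 0.68, adjusted p = 0.653). *Gabrb1* had 1 UMI in cluster 1, 1 in cluster 4 and none in clusters 2, 3 and 5, and *Gabrb2* had 3 in cluster 1 and 1 each in clusters 4 and 5.

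At p12 the clusters and the plates were not crossed, since clusters 2 and 3 came from replicates 1 and 2 and clusters 1, 4 and 5 from replicates 3 and 4. *Gabrg1* stood at 41.7 and 40.1 CPM in p12 cluster 2, 40.6 and 8.60 CPM in cluster 3, 13.7 and 12.5 CPM in cluster 4, 0 and 2.55 CPM in cluster 1 and 2.66 and 0 CPM in cluster 5. Both plates of cluster 4 thus lay above those of clusters 1 and 5 on the same plates. *Gabrg1* (adjusted p = 0.0045) and *Gabra2* (adjusted p = 0.0232) were both called for any difference across p12 clusters, beside 31.5% of the 6209 genes tested. Clusters 2 and 3 as a set cannot be told apart from replicates 1 and 2, nor clusters 1, 4 and 5 from replicates 3 and 4. With plate as a replicate block, which leaves the differences within each set, neither was called (*Gabrg1* adjusted p = 0.0901, *Gabra2* 0.0595, 13.1% of genes called). On replicates 1 and 2 alone neither was called (*Gabrg1* adjusted p = 0.67, *Gabra2* 0.125), and on replicates 3 and 4 alone *Gabra2* was not called (0.469) and *Gabrg1* had too few UMIs for the filter. Without the filter *Gabrg1* was called among clusters 1, 4 and 5 of replicates 3 and 4 (adjusted p = 0.0131, 3% of genes called), with 29 UMIs in 58 neurons of cluster 4 and 2 in 63 of cluster 1. This last fit was added after the values were seen.

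At p0, *Gabra3* stood at 20.2 and 11 CPM on the plates of cluster 1 (35 neurons) and had no UMI in cluster 2 (12 neurons), where 3 counts would be 4.96 CPM. *Gabra5* stood at 66.3 and 44.1 CPM in cluster 1, 47.0 and 22.3 CPM in cluster 2 and 36.5 and 16.6 CPM in cluster 3, where the ranges of clusters 1 and 3 did not overlap. *Gabra5* and *Slc12a2* were the members tested at p0 and neither was called in edgeR (adjusted p = 0.747 and 0.627, 1.52% of 5061 genes called), with 0 at an unadjusted p under 0.05 and 0 called by DESeq2. Without a filter *Gabra3* missed the threshold (adjusted p = 0.105), as did *Gabrg1* (0.0533), which had 28 UMIs in cluster 1, 2 in cluster 2 and none in cluster 3.

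At e14.5 *Slc12a2* stood at 25.7 CPM on both plates of cluster 1, 36.5 and 65.6 CPM in cluster 2 and 57.1 and 39.5 CPM in cluster 3. Cluster 4 had the highest level, 212 CPM in its 1 neuron on replicate 1 and 138 CPM in 5 neurons on replicate 2, from 6 UMIs in all. *Slc12a2* was the only member tested (edgeR adjusted p = 0.414, 4.32% of 4912 genes called, 0 members at an unadjusted p under 0.05 and 0 called by DESeq2). *Gabra3* had 5 UMIs in 41 neurons of cluster 1 and none in 34 of cluster 3. In clusters 3 and 4 the summed proprioceptor markers were lower (688 to 738 CPM) than in clusters 1 and 2 (1727 to 2113 CPM). The study proposes that clusters 3 and 4 (34 and 6 neurons) are not proprioceptors, and they enter the e14.5 stage means. With e14.5 clusters 1 and 2 alone the difference of *Slc12a2* from e14.5 to p0 was -1.13 (adjusted p = 0.11).

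Of the adult, p12 and p0 wells with at least 2000 genes, 550 were left out by the authors and 417 were kept, and *Slc12a2* separated them on every plate. It stood at 97.1, 72.6, 29.1, 44.1 and 40.7 CPM in left-out adult wells, 55.0, 55.6, 15.6 and 26.0 CPM in those of p12 and 41.3 and 35.3 CPM in those of p0. It was higher in the left-out wells on 11 of 11 plates, and at p12 and in the adult no left-out value was as low as the highest kept value of its stage. With plate as a term in the fit the difference was 2.43 on the log2 scale (SE 0.22, edgeR adjusted p = 1.71e-08). The comparison was chosen after the values were seen.

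*Gabra2* and *Gabrg1* were lower in the left-out wells. *Gabrg1* was lower on 11 of 11 plates (-1.17, SE 0.14, adjusted p = 1.22e-06), although p0 replicate 2 had 6.13 against 6.15 CPM, and *Gabra2* on 10 of 11 (-0.67, SE 0.10, adjusted p = 2.69e-05), with 54.7 CPM in left-out against 48.6 CPM in kept wells of adult replicate 2 as the exception. These 3 were the members tested, and all 3 were called, *Slc12a2* higher (9.78% of 9748 genes were called higher) and the others lower (9.61% lower, 19.4% in either direction). *Gabra3*, which the filter left out, was higher in left-out wells on all 5 adult plates (8.29 to 18.4 CPM against 3.6 to 9.25 CPM) and on 8 of 11 plates in all.

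**Figure D5:**
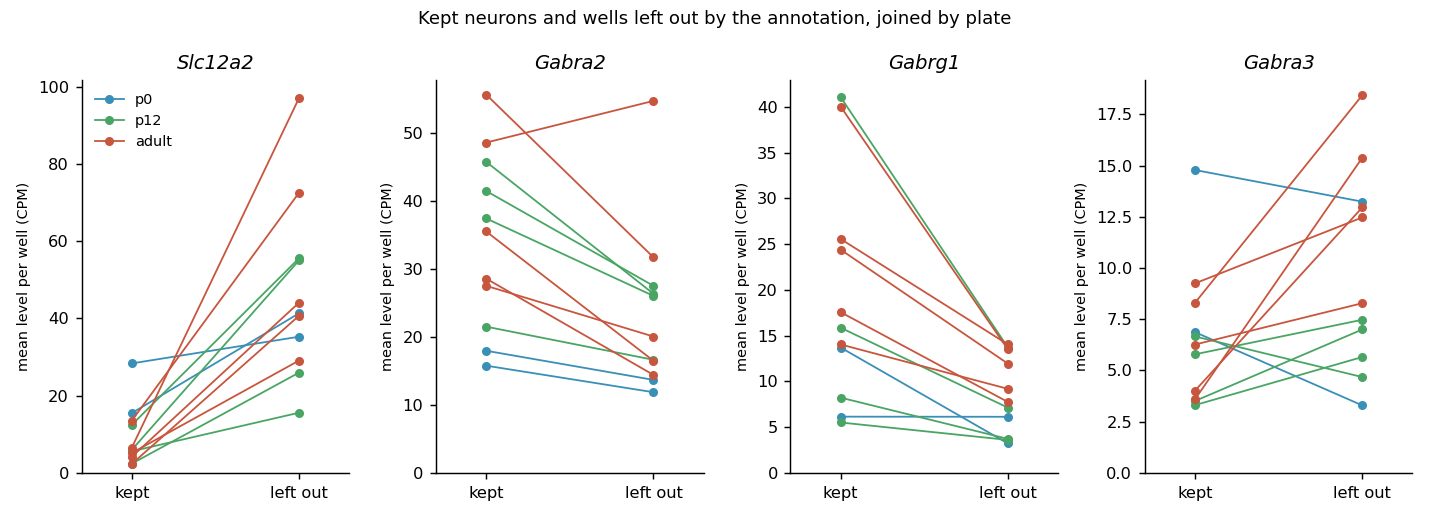
Mean level per well in CPM of 4 members in kept neurons and in left-out wells of the same plate, joined by a line for each adult, p12 and p0 plate. The lines rise on all 11 plates for *Slc12a2*, and fall on 10 of 11 for *Gabra2* and on all 11 for *Gabrg1*.

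The left-out wells held glial RNA beside that of a proprioceptor. The 10 satellite glia and Schwann cell markers summed to 7758 to 12739 CPM in left-out adult wells, against 328 to 878 CPM in kept adult neurons, and all 10 were present in both. *Apoe*, a lipid carrier made by satellite glia, lay between 5288 and 9539 CPM in left-out and 244 and 651 CPM in kept adult wells. The 5 proprioceptor markers summed to 2430 to 3036 CPM in left-out and 2761 to 3315 CPM in kept adult wells. Markers of nociceptors and other sensory neurons summed to 0.704 to 247 CPM in left-out and 2.40 to 17.8 CPM in kept adult wells, and markers of fibroblasts, endothelium and immune cells to 4.92 to 9.58 CPM and 1.78 to 3.84 CPM. How much of the *Slc12a2* or *Gabra3* RNA of these wells came from glia was not tested.

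The other genes around the receptor were read from 3 lists, of which 9 further subunit genes of the GABA-A and GABA-rho receptors had too few UMIs to pass the filter in any comparison. Of 14 chloride transporters and their kinases, 9 were tested between stages. From p0 to p12, *Slc4a2*, an anion exchanger that carries chloride inward, rose by 1.65 on the log2 scale (SE 0.24, adjusted p = 0.000332), from 23.4 ± 1.29 to 64.8 ± 14.2 CPM, and *Wnk1*, a kinase upstream of NKCC1, by 0.76 (SE 0.25, adjusted p = 0.0488). These were 2 calls among 9 genes, where 18.1% of all genes were called at that step. From e14.5 to p0, *Wnk1* fell by 1.36 (SE 0.28, adjusted p = 0.00309) and *Wnk2* by 1.31 (SE 0.26, adjusted p = 0.00244), again 2 calls among 9 genes (27.8% of all genes were called), and between p12 and the adult none of the 9 was called in edgeR (3 at an unadjusted p under 0.05) or in DESeq2.

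Of 17 genes of receptor assembly, anchoring and traffic, 15 were tested between stages. From e14.5 to p0, 5 of the 15 rose and none fell (27.8% of all genes were called in either direction), among them *Nsf*, an ATPase of membrane fusion that takes part in receptor traffic (1.92, SE 0.25, adjusted p = 9.88e-05), *Clptm1*, which holds GABA-A receptors back in the secretory path (1.57, adjusted p = 0.00257), and *Trak1*, a motor adaptor (0.93, adjusted p = 0.0159). From p0 to p12, *Nsf* rose by a further 1.46 (SE 0.21, adjusted p = 0.000235) and *Shisa7*, a partner protein of GABA-A receptors, fell by 2.51 (SE 0.64, adjusted p = 0.0133), from 10.8 ± 4.14 to 1.46 ± 0.606 CPM, the 2 calls among the 15 (18.1% of all genes). Between p12 and the adult the 1 call among the 15 (14.1% of all genes) was *Nlgn2*, the adhesion protein of inhibitory synapses (0.71, SE 0.19, adjusted p = 0.0212). Without a filter this list had 4 calls from e14.5 to p0 (13.4% of all genes), 2 from p0 to p12 (8.53%) and 2 from p12 to the adult (8.87%). The chloride list then had 3, 3 and 1.

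Between adult clusters, *Stk39*, which encodes SPAK, a kinase that activates NKCC1, stood at 459 ± 80.0 CPM in cluster 1, 294 ± 47.3 CPM in cluster 5 and 210 to 252 CPM on average in clusters 2 to 4. It was called for cluster 1 against 5 (0.68, SE 0.14, adjusted p = 0.0056) and against clusters 2 to 4 (0.98, SE 0.13, adjusted p = 6.2e-05), in each the 1 call among the 6 genes tested of its list (4.76% and 5.86% of all genes were called). *Lhfpl4*, which links GABA-A receptors to neuroligin at inhibitory synapses, was higher in cluster 1 (329 ± 22 CPM) and in cluster 5 (303 ± 66.1 CPM) than in clusters 2 to 4 (162 to 203 CPM), by 0.80 (SE 0.14, adjusted p = 0.000847) and 0.73 (SE 0.14, adjusted p = 0.00434). *Gabarapl2*, of the family of GABA-A receptor-associated proteins, was lower in cluster 5 than in clusters 2 to 4 (-0.52, SE 0.13, adjusted p = 0.0254). Of the 14 genes tested of their list, these were 1 call for cluster 1 against 2 to 4 (5.86% of all genes) and 2 for cluster 5 against 2 to 4 (3.99%). Without a filter on low counts 1 gene of this list was called in each (639 and 520 of 23410 genes in all). For the members themselves none of these contrasts was called. For any difference across adult clusters, edgeR called *Stk39* (adjusted p = 0.000564) and *Lhfpl4* (0.00312), 1 of 6 and 1 of 14 genes tested (9.67% of all). Across p12 clusters, which were not crossed with plates, it called *Stk39* (1.47e-06), 1 of 6. Also called were 4 of 13, among them *Nsf* (0.000736), *Gabarapl2* (0.000813) and *Gabarapl1* (0.00482), beside 31.5% of all genes. Across e14.5 clusters it called *Gabarapl1* (0.000964), 1 of 11 (4.32%).

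Over the 18 sums of adult clusters and plates, the 2 genes with the highest Pearson's r of log2(CPM + 1) to *Gabra2*, of 7370 genes, were *Tmx4* (r = 0.90) and *Phactr2* (r = 0.86), and those to *Gabrg1* were *Maz* (r = 0.90) and *Grip1* (r = 0.89). *Gabra2* and *Gabrg1*, neighbours on chromosome 5, had an r of 0.20 with each other over the same sums. The sums share plates, and shallow sums weigh as much as deep ones, so these values are a description.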

How the data were processed

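The plate tables deposited by the authors hold whole-number UMI counts per gene and well, not normalized. Reads were aligned by the authors with STAR to mm10 (GRCm38), per the submitters' processing notes, and versions are not given in the sources used here. Every column was matched to a plate, and the deposited annotation gave each kept neuron's stage and cluster. Wells left out were taken where at least 2000 genes were detected.

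UMIs of kept neurons were summed per plate, or per cluster and plate (at least 2 neurons), and tested with edgeR's quasi-likelihood F-test (TMM, filterByExpr) over all genes, with Benjamini-Hochberg adjustment and a threshold of 0.05. The stage fit held all 13 plates, so its contrasts share one estimate of the spread, and p0 and p12 plates enter 2 contrasts each. Kept neurons on a plate numbered 12 to 94, with plate totals of 680212 to 2387288 UMIs, and counts of a few UMIs set the precision of the sparse genes. Intervals and limits cover counting error only. CPM was computed per neuron, and thinning drew 7000 UMIs per neuron (20 shallower neurons left out, 2 at p12 and 18 at e14.5).

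Alternatives were DESeq2, its size factors in edgeR, no filter, thinned neurons, each plate left out, all wells, sums of at least 1 or 4 neurons, subsets of neurons, and plate as a replicate block. Subsets by plate at p12 (on replicates 3 and 4 also without a filter) and in the stage contrasts, p0 clusters 1 and 2 alone, and the comparisons of adult plate sets and of left-out wells were added after seeing the data. The members and lists were chosen with earlier results of these data known. The text names all 7 members and the 2 genes most like each member tested in the adult clusters. From each list it names, for every comparison of stages or clusters, up to 3 called genes by smallest adjusted p. Some genes of the receptor family and the pathway lists are not reported here. Promoter windows came from RefSeq (6 of the 7 members matched, not *Slc12a2*). The scripts were tested on simulated data. Tools were Python 3.11.15, numpy 2.4.6, pandas 2.3.3, scipy 1.17.1, matplotlib 3.10.9, R 4.3.3, edgeR 4.0.16, limma 3.58.1 and DESeq2 1.42.0.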

Additional observations from a re-analysis of the deposited data

Results flagged for a closer look

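Of 31 groups of 4 or 5 plates, 5 held a plate that lay farther from the others than Dixon's 95% limit allows, and chance gives about 1 in 20 groups of continuous values. That rate does not hold for 3 of the 5, where a single plate with any UMI among plates at 0 passes the limit whatever its value. *Gabra5* stood at 19.5 CPM on p12 replicate 1, against 4.59 to 4.82 CPM on the other p12 plates. *Gabra3* stood at 2.48 CPM in adult cluster 5 on replicate 1 and at 0 on the other 4 plates. *Gabrb1* stood at 1.22 CPM in adult cluster 1 on replicate 4, against 0 on the other 4. *Gabrb2* stood at 3.04 CPM in adult cluster 1 on replicate 4, against 0 to 0.838 CPM, and at 1.34 CPM in adult cluster 5 on replicate 2, against 0 on the other 4. Those of *Gabra3*, of *Gabrb1* and of *Gabrb2* in cluster 5 are the 3 with a single plate above 0. The values of *Gabra3*, *Gabrb1* and *Gabrb2* rest on 1 or 2 UMIs each.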

How the results depend on the processing

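Of 173 alternatives of the counts of members called and of summed levels, 135 stayed within 1.5 times the main count or within 1 SD of the level, and of 753 of single members 603 did so or kept direction and call. Between p12 and the adult 0 members were called, and 1 without a filter, with thinned neurons, with all wells and with p12 replicates 3 and 4 only (0 to 1 with each plate left out, 1 without p12 replicate 1, without either e14.5 plate and without p0 replicate 2). Between p0 and p12 the 2 calls became 1 with thinned neurons and with p0 clusters 1 and 2 only (0 to 2 with each plate left out, 0 without p0 replicate 1). Between e14.5 and p0 the count of 0 became 1 with DESeq2 size factors, all wells or p0 clusters 1 and 2 only and 3 without a filter (0 to 1 with each plate left out). From p12 to the adult, 697 of 6624 genes were called thinned, 2292 of 14648 with all wells and 3070 of 11838 with p12 replicates 3 and 4 only. From p0 to p12 it was 661 of 6624 thinned and 2158 of 11652 with p0 clusters 1 and 2 only. From e14.5 to p0 it was 3300 of 11939 with DESeq2 size factors, 4114 of 14648 with all wells and 3233 of 11652 with p0 clusters 1 and 2 only. Across adult clusters 0 members became 2 without a filter (1543 of 23410 genes). Across p12 clusters the 2 calls became 1 with DESeq2 or sums of at least 4 neurons, 0 with thinned neurons, where no member passed the filter, 0 within either pair of plates (1 on replicates 3 and 4 without a filter), 0 with plate as a replicate block, and 1 with each plate left out. Across p12 clusters 1190 of 6209 genes were called with DESeq2, 124 of 5513 on replicates 1 and 2 and 586 of 6114 on replicates 3 and 4. The causes were not tested.

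Log2 differences that changed sign were uncalled except that of *Slc12a2* between p0 and p12, which was 0.11 with all wells. Between p12 and the adult, *Gabra2* became -0.048 thinned, -0.085 with numbered clusters only, -0.18 with p12 replicates 1 and 2 only and -0.39 with adult replicates 3 to 5 only (-0.15 to 0.15 with each plate left out). *Slc12a2* became 0.065 thinned, 0.25 with p12 replicates 3 and 4 only and 0.33 with adult replicates 1 and 2 only (-0.58 to 0.11 with each plate left out). *Gabra5* became 0.36 with p12 replicates 3 and 4 only (-0.73 to 0.24 with each plate left out) and *Gabrg1* -0.017 with p12 replicates 1 and 2 only. Between p0 and p12, *Gabrg1* became -0.73 thinned and -0.20 with p12 replicates 3 and 4 only. Between e14.5 and p0, *Gabra2* became 0.053 without a filter, 0.47 thinned, 0.55 with e14.5 clusters 1 and 2 only and 0.080 with p0 clusters 1 and 2 only (-0.46 to 0.70 with each plate left out). Between adult clusters 1 and 5, *Gabrg1* became -0.013 with DESeq2 size factors, -0.084 with sums of at least 4 neurons and -0.47 with replicates 1 and 2 only (-0.11 to 0.33 with each plate left out). With replicates 3 to 5 only, *Gabra2* became 0.19 for cluster 1 against 5, 0.061 for 1 against 2 to 4 and -0.13 for 5 against 2 to 4 (the last -0.22 to 0.22 with each plate left out).

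With plate as a replicate block no call changed in the adult, p0 or e14.5 clusters, with *Gabrg1* at an adjusted p (edgeR) of 0.124 for any adult difference, 0.0717 for cluster 1 against 2 to 4 and 0.148 for cluster 5 against 2 to 4, *Gabra2* at 0.769, *Slc12a2* at 0.342 at e14.5, and *Gabra5* at 0.615 at p0. At p12 both calls were lost with the block, as given above. No paired analysis was possible between stages because they shared no plate. The p0 and e14.5 cluster fits could not be run with a plate left out. Depth limits *Gabra3*, *Gabrb1* and *Gabrb2*, with 47, 8 and 5 UMIs in all adult neurons.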

Other observations

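The 42 adult neurons that the study kept without a cluster number held 6 of the 8 adult *Gabrb1* UMIs, on replicates 2, 3 and 4 (2.94, 2.55 and 5.98 CPM), at 2.29 CPM on average over the 5 plates (SD 2.48). Among the numbered clusters *Gabrb1* had 1 UMI in cluster 1 and 1 in cluster 4. In the neurons without a number *Slc12a2* stood at 40.6 CPM on replicate 2, from 5 UMIs in 9 neurons, and between 1.28 and 10.3 CPM on the other 4 plates. *Gabra2* (42.5 ± 15.7 CPM, n = 5) and *Gabrg1* (20.9 ± 22 CPM, n = 5) had means between the lowest and the highest mean of the numbered clusters (35.5 to 60.6 CPM and 8.07 to 37.6 CPM). These values were not tested.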
